A study of Mus musculus with 12 samples.

Results

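Erythroid regulator and membrane genes were examined in chromatin immunoprecipitation sequencing of histone marks. The group holds 7 of the 21887 protein-coding genes with coordinates: Klf1, Gata1 and Zfpm1 (transcription regulators), Epor and Tfrc (receptors), Alas2 (an enzyme of haem synthesis) and Rhag (a membrane protein). They were chosen by name, with their H3K4me1 difference between genotypes already known, so their H3K4me1 values are given as a description without a test. All peaks that overlapped a gene's body with 10 kb on either side were taken from each of the 12 peak lists.

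The cells were cKit+ bone marrow cells, sorted by flow cytometry from C57BL/6 mice. One genotype was wild type (WT) and the other carried Phf6 R274X as a transgene (Tg), a nonsense form of a chromatin-associated protein. Both genotypes shared the strain, the tissue and the sort, and no treatment was given in the labels. The labels used here name neither the promoter that drives the transgene nor the age of the mice. Each genotype had 2 libraries for H3K27ac, 2 for H3K4me1 and 2 for H3K4me3. The labels do not say whether libraries of a group came from separate mice, so p-values measure only the spread between these libraries, which may be technical. In H3K4me3 the 2 libraries of each group differed in Y-linked and Xist peaks, as given below, so there the spread is not technical alone.

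Red blood cells arise from cKit+ progenitors under the control of the zinc finger factor GATA1, its partner FOG1 (the product of Zfpm1) and the factor KLF1, which binds CACC boxes in erythroid genes. Erythropoietin acts on its receptor, encoded by Epor, to keep late progenitors alive, and the transferrin receptor, encoded by Tfrc, brings in the iron that haem synthesis needs. H3K4me1 marks enhancers and the edges of promoters, H3K27ac marks active enhancers and promoters, and H3K4me3 marks the starts of genes that are active or poised.

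Promoters of 4 members hold a GATA word, the short sequence that GATA factors are known to read, and are shown for that reason. A GATA word was the letters AGATAA or the letters AGATAG, or else the letters TGATAA or the letters TGATAG, on both strands, in the 250 bases before the annotated start. The sequences are those of RefSeq for GRCm38.p6, the assembly called mm10, printed 5′ to 3′ on the strand of the gene, with the GATA word in capitals.
Klf1, chr8:84901732-84901981, plus strand: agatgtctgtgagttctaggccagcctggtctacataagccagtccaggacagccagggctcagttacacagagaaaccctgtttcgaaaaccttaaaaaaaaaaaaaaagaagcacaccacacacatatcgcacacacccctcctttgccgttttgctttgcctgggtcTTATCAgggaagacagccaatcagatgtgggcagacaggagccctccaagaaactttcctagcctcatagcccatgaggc
Epor, chr9:21963577-21963826, minus strand: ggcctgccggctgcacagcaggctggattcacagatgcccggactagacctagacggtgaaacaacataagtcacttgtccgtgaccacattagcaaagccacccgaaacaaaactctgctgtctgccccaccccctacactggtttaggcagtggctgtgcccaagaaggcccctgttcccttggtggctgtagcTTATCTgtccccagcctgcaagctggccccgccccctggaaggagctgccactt
Alas2, chrX:150547167-150547416, plus strand: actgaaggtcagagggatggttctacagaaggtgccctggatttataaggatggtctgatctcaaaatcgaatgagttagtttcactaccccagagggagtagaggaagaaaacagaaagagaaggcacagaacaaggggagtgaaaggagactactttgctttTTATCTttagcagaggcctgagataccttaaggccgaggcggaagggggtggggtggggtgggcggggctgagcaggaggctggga
Rhag, chr17:40810899-40811148, plus strand: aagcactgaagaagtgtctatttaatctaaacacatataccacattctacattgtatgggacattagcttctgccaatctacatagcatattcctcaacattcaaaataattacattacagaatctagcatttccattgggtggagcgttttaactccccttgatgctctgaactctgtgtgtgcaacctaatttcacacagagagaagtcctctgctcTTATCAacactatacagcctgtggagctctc

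A GATA word stood in 4 of the 7 promoters, each on the opposite strand, so that the capitals read as its reverse complement. Of 17492 protein-coding promoters of the same length, 24.3% held one. The CACC box, searched as CCACCC on both strands and without overlap with the GATA words, stood in 5 of the 7 (Gata1, Zfpm1, Epor, Alas2 and Rhag) and in 29.6% of all promoters. Alas2 held 3 CACC boxes that overlap by 1 base, and Zfpm1 and Epor held 2 each. The promoters also differed in base composition. Zfpm1 had 28 CG pairs and Tfrc 25, where the median promoter had 10, while Klf1, Gata1, Alas2, Epor and Rhag had 1 to 6. A match is a description of the letters, not of binding.

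The lists differ in size, and that bears on every value below. H3K4me1 peaks covered 66.3 and 119.7 Mb in the WT libraries and 70.7 and 117.0 Mb in the Tg libraries, so the replicates numbered 2 were far wider than those numbered 1 in both genotypes. H3K27ac peaks covered 45.7 and 36.6 Mb in WT and 28.5 and 33.8 Mb in Tg. H3K4me3 peaks covered 38.3 to 43.6 Mb. Depth is unknown, since the lists hold no read counts. Kit, the marker of the sort, had 1 to 33 peaks in its window in each of the 12 lists. In all 4 H3K4me3 lists the peak names carry the opposite genotype to the label, while in the other 8 lists name and label match, so every H3K4me3 direction below is by label only. The H3K4me3 libraries numbered 1 had 5 and 4 peaks in 4 Y-linked genes and none in Xist, and those numbered 2 had none in the Y-linked genes and 6 and 3 in Xist. The other 8 libraries had 1 to 6 peaks in Xist and none in the Y-linked genes, which touches the X-linked members Gata1 and Alas2.

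In H3K4me1, peaks covered less sequence in Tg than in WT when the group was summed, and Zfpm1 held most of that difference. Summed over the 7 windows, covered length was 54.4 and 80.5 kb in WT, against 22.7 and 49.8 kb in Tg. Without Zfpm1 it was 14.9 and 24.7 kb against 9.78 and 21.4 kb, and the genotypes overlapped. After quantile normalization and on the scale of log2(covered bp + 500), the change from WT to Tg was below 0 for all 6 members that had a peak in at least 2 of the 4 libraries. Over all 16134 genes tested this share was 49.6%. The members' median change was -0.27, against 0.00 over all genes tested. This contrast chose the members, so nothing is read from the count. Every WT library lay above every Tg library at 2 of the 6, Zfpm1 and Gata1, against 6.48% of all genes tested, and every Tg library above every WT library at 0, against 2.5%. Tg replicate 1 was the lowest of the 4 libraries at all 6, which held at 47.4% of genes, although its list covered more of the genome than that of WT replicate 1. No gene of the 16134 passed the limma test with Benjamini-Hochberg adjustment in H3K4me1 (0%), and 1357 had an unadjusted p under 0.05. In a mixed population, fewer cells that carry a mark and less mark per cell cannot be told apart.

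**Figure D1:**
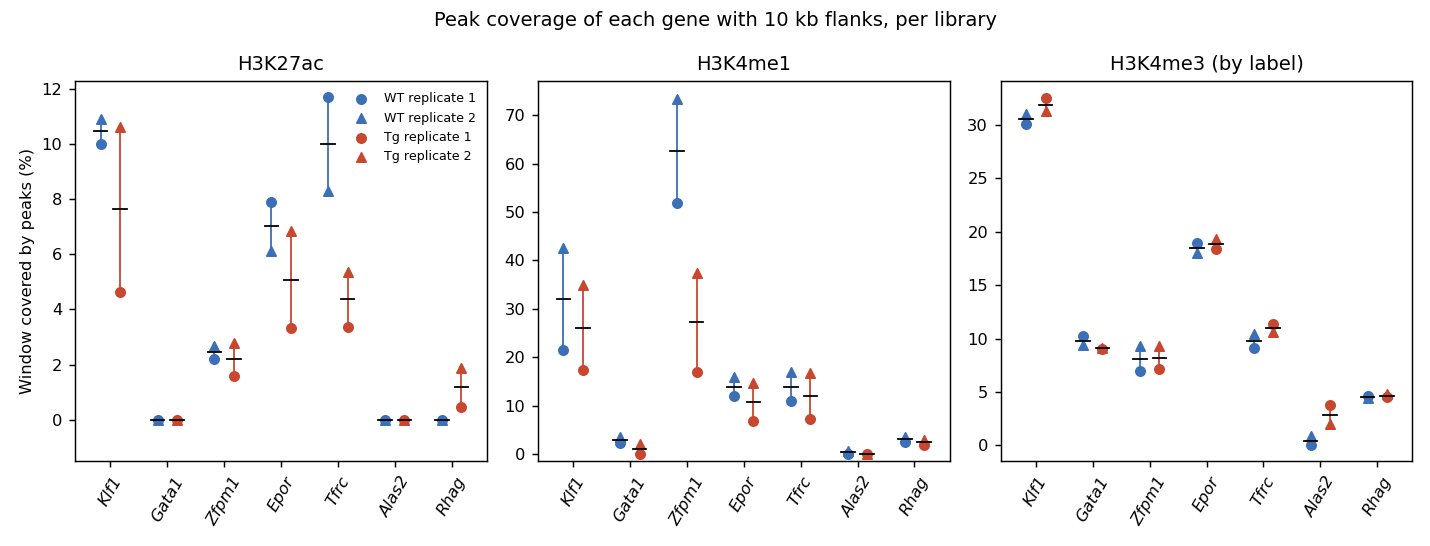
Sequence covered by peaks over each gene and 10 kb on either side, for the 7 genes and the 3 marks. Each panel has its own scale, with 1 point for each library and a bar at the mean of each genotype. Zfpm1 in H3K4me1 runs from 55.8 kb (73.4% of its window) in WT replicate 2 down to 12.9 kb (16.9%) in Tg replicate 1. H3K4me3 peaks are present in all 4 libraries at 6 of the 7 genes.

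Zfpm1, whose product FOG1 binds GATA1 and is needed for red cell and platelet formation, lies on chromosome 8 from 122281856 to 122337862 of mm10. Its H3K4me1 peaks covered 39439 and 55782 bp in WT, against 12872 and 28430 bp in Tg, or 47610.5 ± 11556 bp against 20651 ± 11001 bp (mean ± SD, n = 2 each). Both WT libraries were above both Tg libraries, and the fitted log2 change was -1.26 ± 0.26 (SE). In WT the marked sequence filled 51.9% and 73.4% of the window, and in Tg 16.9% and 37.4%. That share of the window of 76.0 kb was at the 99.9th percentile of all genes in both WT libraries and at the 88.0th and 94.5th in Tg. The window also overlaps Zfp469, so part of the covered length may belong to that gene.

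The covered length of the gene and of each flank was lower in both Tg libraries than in both WT libraries. Single regions did not all share this, and the genotypes overlapped at several, among them 2 next to the start and a wide one inside the gene. The region at 122280062 to 122281801 had 1043 and 1366 bp in WT, against 563 and 1558 bp in Tg. The region at 122282533 to 122283871 had 0 and 1339 bp against 1167 and 959 bp. The wide region, 122292988 to 122300554, had 4878 and 7188 bp in WT, against 3442 and 4982 bp in Tg. Within the gene, peaks covered 55.9% and 81.0% in WT and 19.9% and 38.0% in Tg. The 10 kb before the gene held 4.24 and 5.65 kb in WT, against 0.563 and 3.87 kb in Tg, and the 10 kb after it held 3.90 and 4.79 kb against 1.18 and 3.27 kb. Of the 35.7 kb marked in both WT libraries, 14.7 kb (41.3%) was marked in neither Tg library. The same share over the genome was 7.74%. In the converse direction, 1.58% of the sequence marked in both Tg libraries was marked in neither WT library, against 6.30% over the genome. The widest single peak measured 2516 and 9558 bp in WT, against 1455 and 2994 bp in Tg. None of the 14.7 kb lay under an H3K27ac peak, and 151 bp lay under an H3K4me3 peak, in any library.

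Peaks of the 4 lists that overlapped or touched were joined into regions. By this count 7 regions of the Zfpm1 window were present in both WT libraries and in neither Tg library. The widest lay at 122327361 to 122329351, inside the gene and 45220 to 47210 bp after its start. Another lay at 122288722 to 122290050, 6581 to 7909 bp after the start. One more lay at 122306368 to 122307498, next to one at 122305682 to 122306366. The remaining 3 measured 362 to 715 bp. No region of this window was present only in Tg, and 8 regions were present in all 4 lists, the widest of them inside the gene at 122307722 to 122317345 and 122317433 to 122327269.

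**Figure D2:**
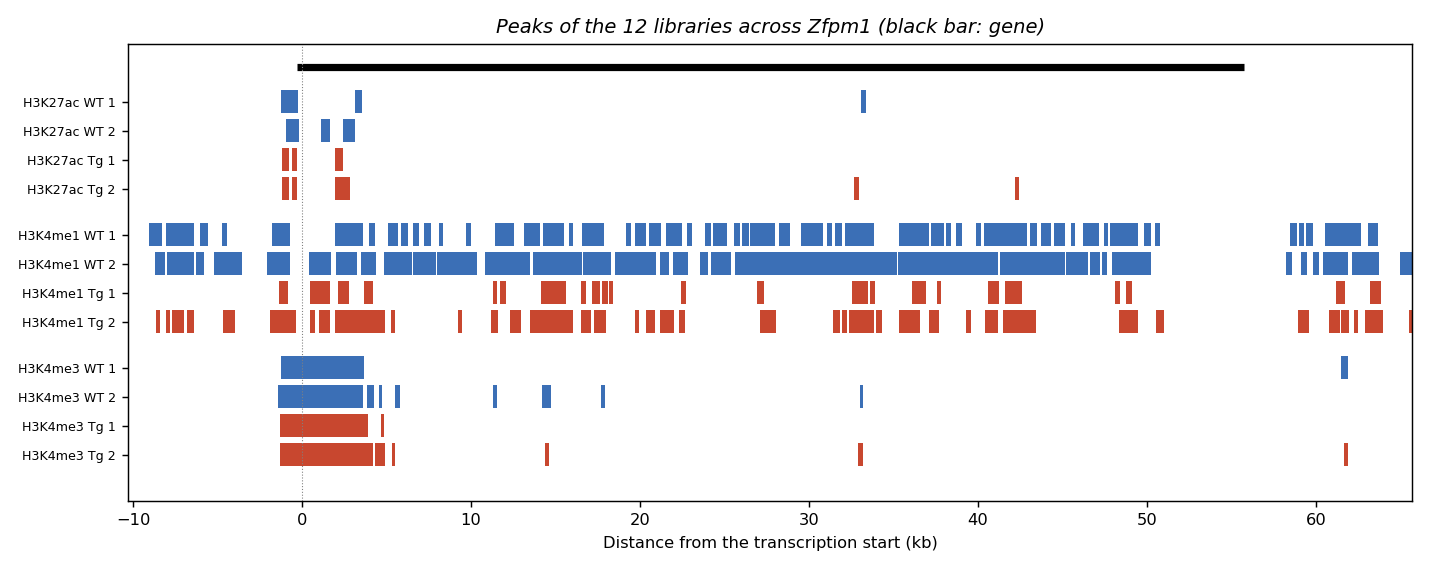
Peaks of the 12 lists along the Zfpm1 window, plotted by distance from the start of the gene in kb (horizontal axis), with 1 row for each library and a bar for each peak. H3K4me1 peaks fill 55.9% and 81.0% of the gene in the WT rows and 19.9% and 38.0% in the Tg rows, while each H3K4me3 row has its widest peak, of 4905 to 5548 bp, over the start.

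Klf1, which encodes the erythroid factor KLF1, lies on chromosome 8 from 84901982 to 84905291. Its window of 23.3 kb also holds Gcdh, Dnase2a and Mast1, so part of the covered length belongs to those genes. H3K4me1 peaks covered 5006 and 9923 bp in WT, against 4022 and 8126 bp in Tg, a log2 change of -0.23 ± 0.21 (SE), which was 0.15 over the gene body with no flank. The replicates numbered 2 were above those numbered 1 in both genotypes, and the groups overlapped. One region, at 84899997 to 84901069 or -1985 to -913 bp from the start of Klf1, was present in both WT libraries and in neither Tg library. The region over the start itself, 84901943 to 84904115, was present in all 4.

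Gata1, which encodes the master regulator of the red cell lineage, lies on the X chromosome from 7959260 to 7976663. H3K4me1 covered little of its window of 37.4 kb, with 874 and 1318 bp in WT, none in Tg replicate 1 and 793 bp in Tg replicate 2. The groups did not overlap, and the log2 change was -0.96 ± 0.29 (SE), or -1.80 with a pseudocount of 100 bp. These were 3 and 4 short peaks in WT and 1 in Tg replicate 2, and no region of the window was present in all 4 lists.

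Epor, the gene of the erythropoietin receptor, lies on chromosome 9 from 21958897 to 21963576, and its window also holds Plppr2, Swsap1 and Rgl3. H3K4me1 covered 2932 and 3914 bp in WT, against 1680 and 3594 bp in Tg, a log2 change of -0.30 ± 0.24 (SE) with overlapping groups. The change was 0.03 with only peaks of −log10 q of at least 5 and -0.72 with 2 kb flanks, and ran from -0.55 to -0.054 when 1 library was left out. The region at 21963734 to 21964403, or -827 to -158 bp from its start, was present in both WT libraries and neither Tg library. It overlapped the promoter shown above, and H3K4me3 peaks lay over it in all 4 lists of that mark. Of the sequence marked in both WT libraries, 28.4% was marked in neither Tg library.

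Tfrc lies on chromosome 16 from 32608896 to 32632794. Its H3K4me1 peaks covered 4778 and 7392 bp in WT, against 3133 and 7314 bp in Tg, a log2 change of -0.21 ± 0.23 (SE) with overlapping groups. The change was -0.63 with only peaks of −log10 q of at least 5 and ran from -0.40 to -0.031 when 1 library was left out. No region there was present in a single genotype. Of its sequence marked in both WT libraries, 1.15% was marked in neither Tg library, the lowest share of the 5 members with a peak in every list of this mark.

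Rhag encodes the Rh-associated glycoprotein of the red cell membrane and lies on chromosome 17 from 40811099 to 40844094. H3K4me1 covered 1334 and 1878 bp in WT, against 948 and 1569 bp in Tg, a log2 change of -0.22 ± 0.29 (SE) with overlapping groups, and of -0.51 to 0.064 when 1 library was left out. A region at 40805907 to 40806283, or -5242 to -4866 bp from its start, was present only in the WT libraries. Of the 0.627 kb marked in both WT libraries, 35.4% was marked in neither Tg library, against 7.74% over the genome. Conversely, 26.4% of the 0.526 kb marked in both Tg libraries was marked in neither WT library, against 6.30% over the genome. Alas2, which encodes the enzyme of the first step of haem synthesis in red cell precursors, lies on the X chromosome from 150547417 to 150570622, inside the annotated span of Apex2. It had 293 bp of H3K4me1 in WT replicate 2 and none in the other 3 libraries, so it was not tested.

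Over the 7 windows, 10 of 58 H3K4me1 regions (17.2%) were present only in WT and none only in Tg. In the whole series 3.25% of regions were present only in WT. Zfpm1 held 7 of the 10, and without its window 3 of 34 regions remained. A region present only in WT stood in 4 of the 7 windows (Zfpm1, Klf1, Epor and Rhag), against 19.8% of the windows of all genes tested, and one present only in Tg stood in 12.7% of those. None of the 10 overlapped an H3K27ac peak in any library, and those of Epor and Klf1 overlapped an H3K4me3 peak in 4 and 1 of the 4 lists of that mark.

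**Figure D3:**
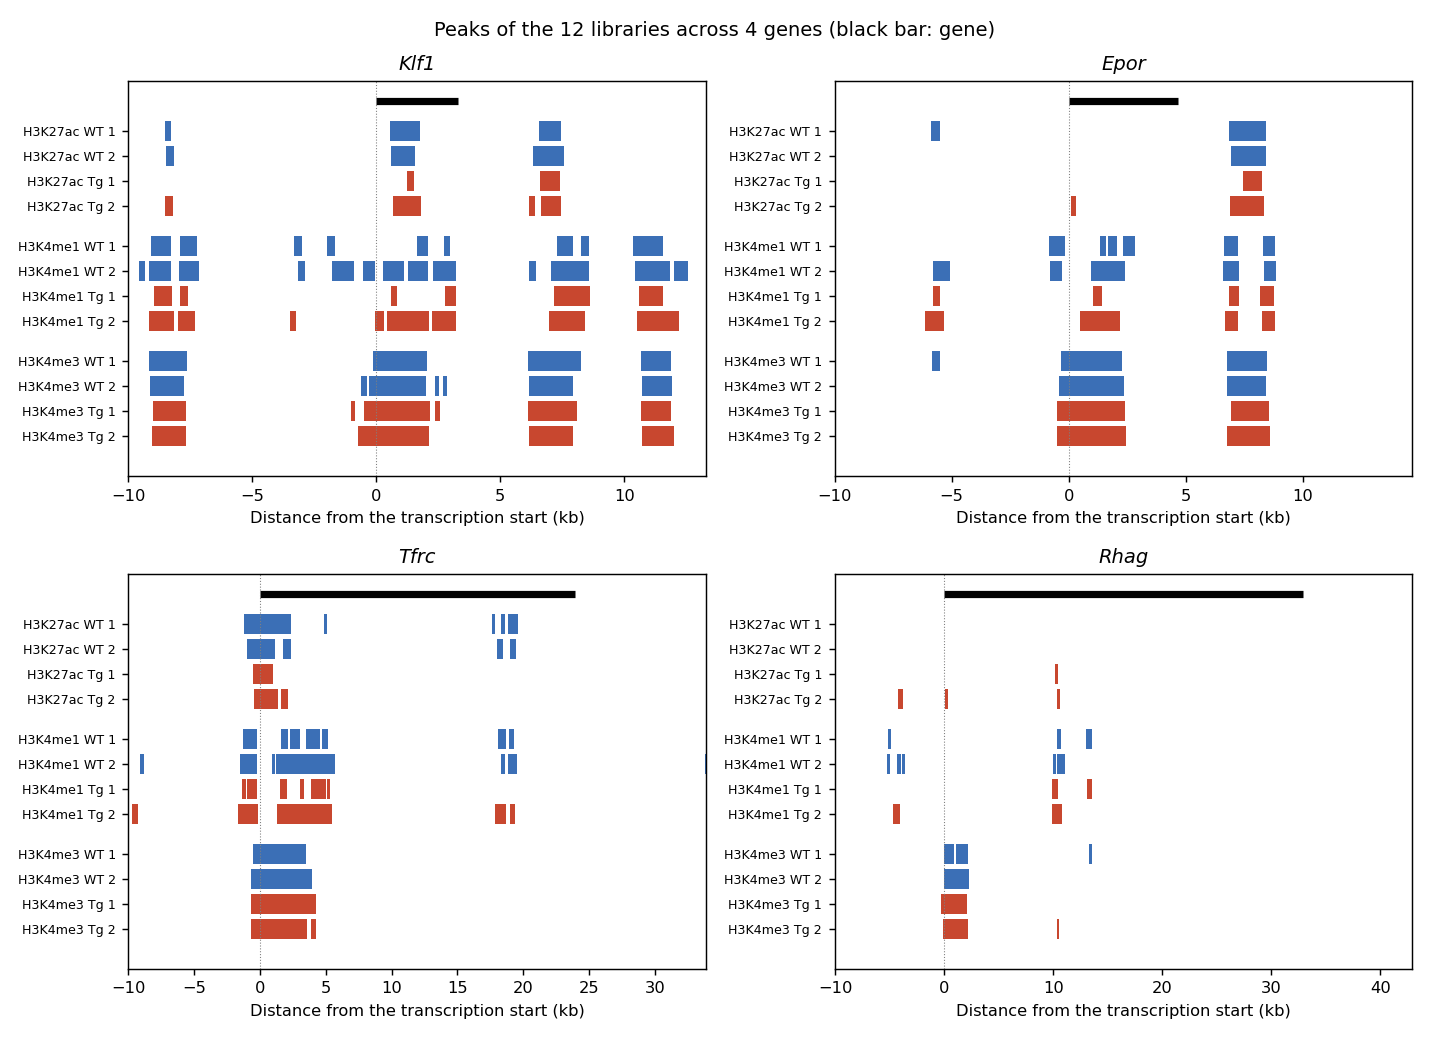
Peaks along the windows of Klf1, Epor, Tfrc and Rhag, plotted by distance from the start of each gene in kb (horizontal axis), with 1 row for each of the 12 libraries and a bar for each peak. H3K4me3 covers the start of each gene in all 4 libraries, and the H3K27ac peaks of Tfrc 18003 to 19587 bp after its start appear in the WT rows alone.

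The same genes were compared for H3K27ac, the mark of active enhancers and promoters. Of 5 members tested, 0 passed the limma test with Benjamini-Hochberg adjustment, where 52 of 13604 genes (0.382%) did and 1816 had an unadjusted p under 0.05. The count of 52 was 0 without WT replicate 1 or without WT replicate 2, 404 without Tg replicate 1 and 531 without Tg replicate 2. Tfrc and Rhag had an unadjusted p under 0.05, with changes in opposite directions, but neither p is read as support. Rhag had no peak in WT, so it could only be higher in Tg, and the lower value at Tfrc was known beforehand. The median change of the 5, Rhag included, was -0.16, against 0.03 over all genes tested.

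At Tfrc, H3K27ac covered 5132 and 3646 bp in WT, against 1481 and 2356 bp in Tg, or 4.39 ± 1.05 kb against 1.92 ± 0.62 kb (mean ± SD, n = 2 each). Both WT libraries were above both Tg libraries, as at 45.3% of all genes tested. The WT lists of this mark were the wider ones. The log2 change was -0.76 ± 0.17 (SE), with a limma adjusted p of 0.167, so the difference did not pass the threshold. A lower value at this gene was known when the members were chosen. The peak over the start, 32607660 to 32611267, was present in all 4 lists. Inside the gene, 32626899 to 32627532 and 32627722 to 32628483 were present only in WT, 18003 to 19587 bp after the start, and carried H3K4me1 in 3 of 4 libraries and no H3K4me3. Of the sequence marked in both WT libraries, 38.1% (1.25 kb) was marked in neither Tg library, against 15.1% over the genome, and all of it lay under an H3K4me1 peak of at least 1 library. Windows with a region present only in WT made up 11.8% of all genes tested.

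Rhag had no H3K27ac peak in either WT library, 255 bp in Tg replicate 1 and 986 bp in Tg replicate 2. Every Tg library was thus above every WT library, as at 5.59% of genes. It passed the filter only through the Tg libraries, so it had to be higher in Tg, and its limma adjusted p was 0.210. The fitted log2 change was 1.01 with a pseudocount of 500 bp and 2.35 with 100 bp, and is no bound. The region at 40821312 to 40821772, of which 96 bp were marked in both Tg libraries, was present only in Tg and lay within a region that carried H3K4me1 in all 4 libraries of that mark, 10163 to 10623 bp after the start. A window with a region present only in Tg was found at 5.54% of genes. The peaks there ranked at percentiles 7.4 and 2.1 of their lists by −log10 q.

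The other members with H3K27ac peaks did not pass the test, and their groups overlapped. Klf1 had 2333 and 2540 bp in WT, against 1082 and 2473 bp in Tg, a log2 change of -0.20 ± 0.26 (limma adjusted p = 0.779). Its strongest H3K27ac region, 84908160 to 84909555, lay at the start of Dnase2a, and its own region, 84902520 to 84903775 and inside the gene, was present in all 4 lists. Epor had 1952 and 1506 bp in WT, against 820 and 1689 bp in Tg (log2 change -0.16 ± 0.19, limma adjusted p = 0.776), and its strongest region, 21955133 to 21956711, lay at the start of Swsap1. Zfpm1 had 1681 and 2034 bp in WT, against 1217 and 2128 bp in Tg (log2 change 0.07 ± 0.21, limma adjusted p = 0.914). At Zfpm1 the H3K27ac value thus differed by less than its error where H3K4me1 was lower by more than 1 on the log2 scale. The direction at Klf1, Epor and Zfpm1 changed when 1 library was left out. Gata1 and Alas2 had no H3K27ac peak in any library.

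H3K4me3 peaks stood at the starts of these genes in both genotypes. A region over the start was present in all 4 lists at Klf1, Gata1, Zfpm1, Epor, Tfrc and Rhag, at 6 of the 7 members. None of the 7 passed the limma test with Benjamini-Hochberg adjustment, nor did any of the 16136 genes tested (0%), of which 737 had an unadjusted p under 0.05. Klf1 covered 7010 and 7238 bp in the libraries labelled WT and 7577 and 7292 bp in those labelled Tg (log2 change 0.05, limma adjusted p = 0.960). Epor had 4688 and 4444 bp against 4540 and 4768 bp (0.03, limma adjusted p = 0.968), and Rhag 2456 and 2326 bp against 2388 and 2524 bp (0.06, limma adjusted p = 0.947). Each of these differences was smaller than its standard error, and its direction changed under at least 1 alternative.

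Zfpm1, the member with the widest H3K4me1, held 5276 and 7067 bp of H3K4me3 in the libraries labelled WT and 5394 and 7059 bp in those labelled Tg, a log2 change of 0.01 ± 0.23 (limma adjusted p = 0.994). Its values followed the replicate number, and its direction changed when 1 library was left out. Tfrc had 4015 and 4590 bp against 4975 and 4668 bp (0.15, limma adjusted p = 0.931). Gata1 had 3827 and 3504 bp against 3373 and 3418 bp (-0.08, limma adjusted p = 0.934).

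At Alas2, H3K4me3 was low. It had no H3K4me3 peak in the library labelled WT replicate 1, 355 bp in WT replicate 2, and 1624 and 850 bp in the libraries labelled Tg. The log2 change was 1.37 ± 0.37 (SE) and the limma adjusted p was 0.922, so it did not pass. The change was 2.58 with a pseudocount of 100 bp and ran from 1.02 to 1.77 when 1 library was left out. The part of the split between Xist and Y-linked peaks in this X-linked gene was not tested. A single region, 150548452 to 150548904, was present in both libraries labelled Tg and neither labelled WT, 1035 to 1487 bp after the start, and such regions stood in 3.82% of the windows tested. Every library labelled Tg lay above every one labelled WT at 3 members (Klf1, Tfrc and Alas2), against 11.6% of genes tested, and the reverse held at 1 (Gata1), against 18.2%. No region was present only in the libraries labelled WT, where 5.79% of the windows tested held one.

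**Figure D4:**
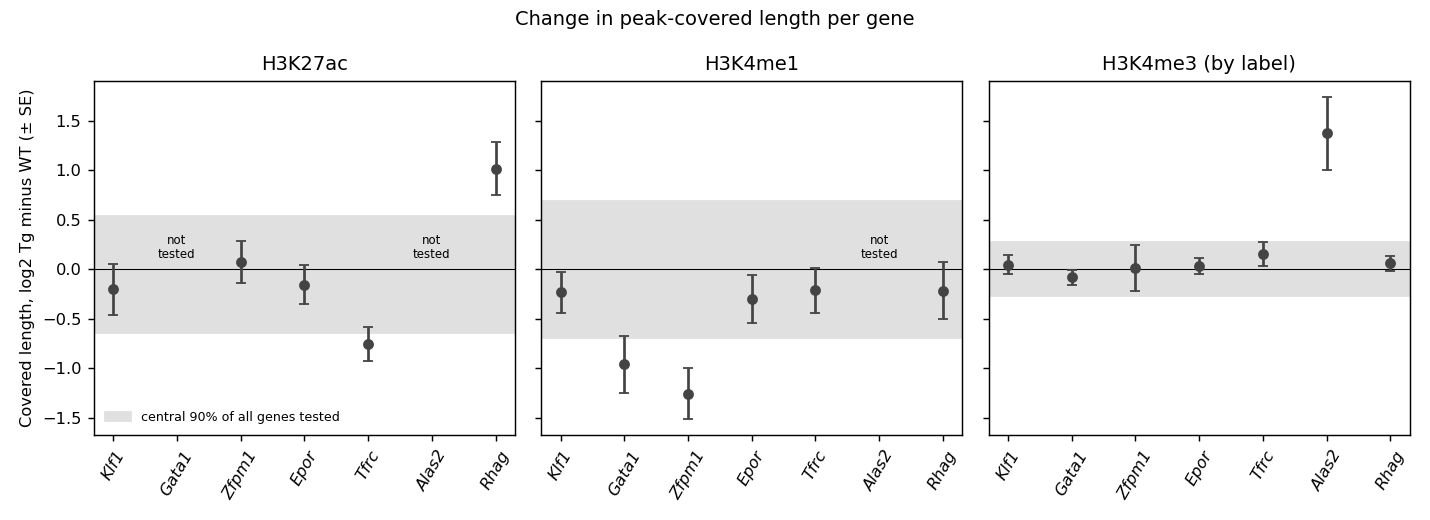
Fitted log2 change from WT to Tg in covered bp (positive for higher in Tg), by gene and by mark. Bars show 1 standard error from limma, for the members tested in each mark. In H3K4me1 all 6 points lie below 0, from -1.26 at Zfpm1 to -0.21 at Tfrc, while the H3K4me3 points lie within 0.2 of 0 except Alas2 at 1.37.

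Other genes of the same pathways were compared by lists chosen for their roles. Earlier results of these data were known when the lists were chosen, so the counts are a description. In H3K4me1 no list had a gene that passed the limma test, but the counts of genes lower in Tg are given beside the 49.6% of all genes. Genes lower in Tg numbered 13 of 16 transcription factors and partners of GATA1, 11 of 14 genes of erythropoietin receptor signalling, 11 of 13 of haem synthesis, 8 of 8 of iron uptake and storage, 17 of 18 of the red cell membrane and 6 of 6 globins. Their median changes were -0.13, -0.13, -0.11, -0.17, -0.51 and -0.86. Among lists of other cell types, 4 of 10 megakaryocyte genes, 2 of 10 of mature granulocytes, 2 of 8 of monocytes, 1 of 6 of mast cells, 3 of 8 of B cells, 1 of 5 of T cells and 2 of 8 of stem and progenitor cells were lower in Tg. Their medians ran from 0.03 (megakaryocyte) to 0.49 (mast cell). Neighbouring genes, such as the globins, can share peaks through their flanks, so the genes of a list are not independent. The difference between lists was not tested.

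The genes named here had the largest H3K4me1 differences of the lists of erythroid pathways. Genes of the lists of other cell types, whose medians were above 0, are not named. Aqp1, a water channel of the red cell membrane, had 3186 and 7607 bp in WT, against none and 1502 bp in Tg, and Ank1, an anchor of the membrane skeleton, had 7668 and 9413 bp against 1648 and 4141 bp. Fech, the enzyme that puts iron into haem, had 3434 and 6643 bp against 637 and 1905 bp, and Glrx5, which helps build iron-sulphur clusters, had 7538 and 11981 bp against 3062 and 4703 bp. The transcription factor gene Gfi1b had 8614 and 11641 bp against 2602 and 6055 bp. The iron transporter gene Slc11a2 had 6757 and 9668 bp against 1562 and 6235 bp, and Stat5a, a transducer of the erythropoietin receptor signal, had 9176 and 15584 bp against 7252 and 7741 bp. At each of these genes both WT libraries were above both Tg libraries, which held at 6.48% of all genes tested. The genes were named for their large differences, so nothing is read from this. Their log2 changes ran from -2.43 at Aqp1 to -0.64 at Stat5a, and none passed. Tcf3 (-0.83), Steap3 (-0.50) and Erfe (-0.59) also had log2 changes below 0, and at Erfe the groups overlapped.

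Among the globins, Hbb-bt had 2714 and 4903 bp of H3K4me1 in WT, against none and 1375 bp in Tg. Hbb-y had 4173 and 3085 bp against 492 and 1473 bp. Summed over the windows of the globin list, H3K4me1 covered 10.01 and 11.9 kb in WT, against 1.42 and 4.18 kb in Tg, with no overlap between the genotypes. In sums over a list, a peak that lies in the windows of neighbouring genes counts more than once. The part of the globins, markers of maturing red cells, in the members' H3K4me1 values was not tested. The mature granulocyte list covered 58.8 and 126.9 kb in WT, against 74.0 and 130.2 kb in Tg, and followed the replicate number. In H3K27ac that list held 112.6 and 114.8 kb in WT, against 60.3 and 52.7 kb in Tg, with 9 of 10 genes lower and 1, Mmp8, past the threshold (limma adjusted p = 0.047). None of its 10 genes was at 0 in any library. Its part in the lower H3K27ac at Tfrc was not tested.

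**Figure D5:**
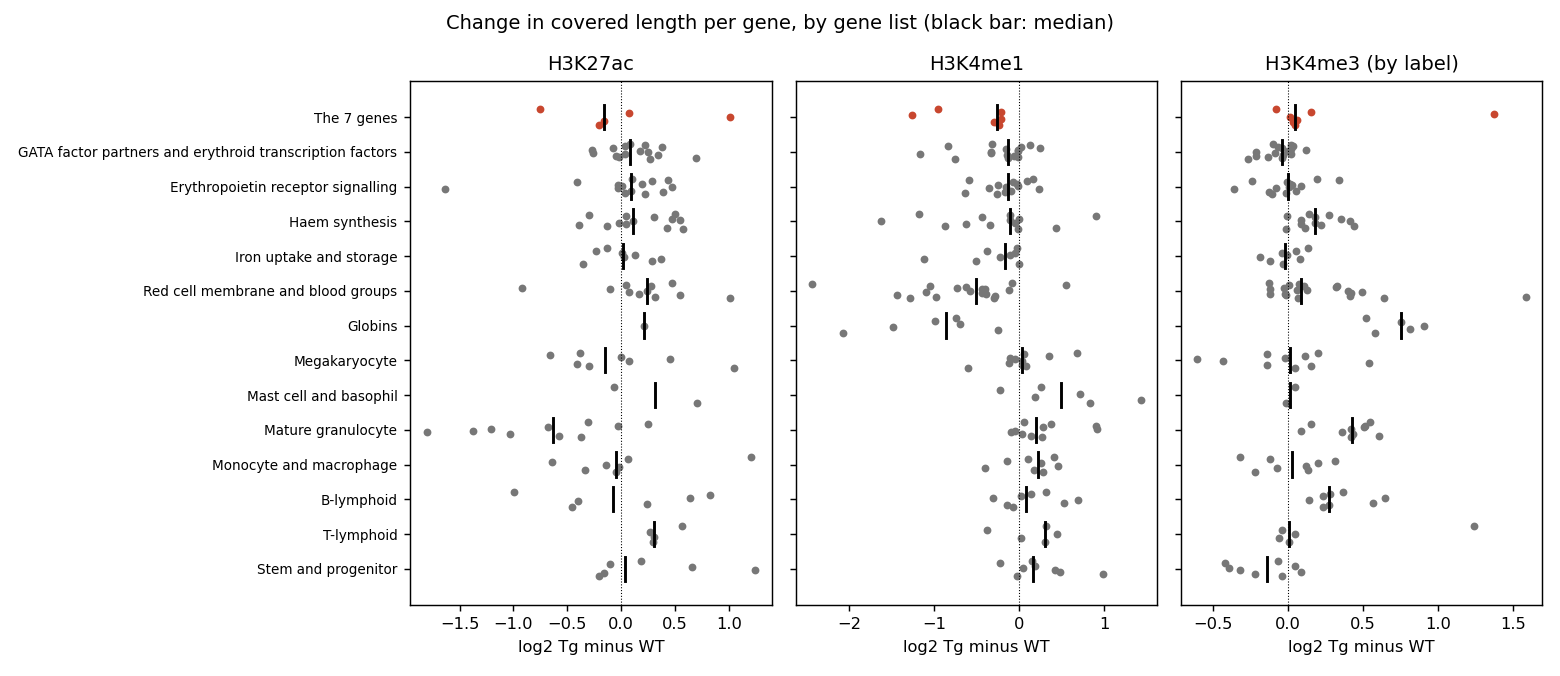
Log2 change from WT to Tg (horizontal axis) for each gene of each list, with 1 panel for each mark, a point for each gene tested and a line at the median of the list. In H3K4me1 the medians of the globin (-0.86) and red cell membrane (-0.51) lists lie furthest below 0, while that of the mature granulocyte list is 0.20.

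The other marks gave other counts. In H3K27ac, 5 of 15 transcription factors, 4 of 14 receptor signalling genes, 4 of 13 haem genes, 3 of 8 iron genes and 2 of 11 membrane genes were lower in Tg, against 44.6% of all genes, and none passed. Tal1, a partner of GATA1, had 2847 and 2533 bp in WT, against 3298 and 4292 bp in Tg. Socs3, an inhibitor of receptor signalling, went the other way, with 5127 and 4554 bp against 295 and 2079 bp (limma adjusted p = 0.227). In H3K4me3 by label, 2 of 13 haem genes, 6 of 20 membrane genes and 0 of 5 globins were lower in Tg, against 49.1% of all genes. The counts were 11 of 16 for transcription factors, 7 of 14 for receptor signalling and 5 of 8 for iron genes. Lists of other cell types ran from 0 of 10 mature granulocyte genes and 0 of 8 B cell genes to 6 of 8 stem and progenitor genes. Slc4a1, the anion exchanger of the red cell membrane, had 416 and 1621 bp in the libraries labelled WT and 3489 and 3022 bp in those labelled Tg, and its limma adjusted p was 0.922.

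The genes whose profile over the 12 libraries was most like the median profile of the members were Caprin2 (Pearson r = 0.958), N4bp2l2 (0.957), Phka1 (0.946), Polg2 (0.933) and Serhl (0.933), out of 13149 genes compared. These values are a description, since the points share their libraries and the widths of their lists. Caprin2 had 1146 and 1502 bp of H3K4me1 in WT, against none and 962 bp in Tg.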

How the data were processed

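Per the submitters' processing notes, the authors used Bowtie2, MACS2, SAMtools, deepTools, FastQC and Trim Galore with mm10, and versions, settings and any control library are not given in the sources used here. Per the labels, single-end reads of 75 bp were sequenced. The authors deposited 1 narrowPeak list per library, called per library, whose columns hold a score, a fold enrichment (a ratio), the p-value and q-value as −log10, and a summit offset. The lists hold no counts, so depth is unknown. Fold and −log10 values were used only to rank peaks within a list and to set a stricter threshold.

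For each gene of the RefSeq table of GRCm38.p6, the length covered by peaks over the gene body with 10 kb flanks was taken as log2(bp + 500), quantile normalized within a mark, and tested with limma 3.58.1 in R 4.3.3 (Benjamini-Hochberg, 0.05) over genes with a peak in at least 2 of 4 libraries. The steps were tested on simulated data in which 200 genes were changed by 2 on the log2 scale. Of these, 71.5% were recovered in H3K27ac (13604 genes), 27% in H3K4me1 (16134 genes) and 84% in H3K4me3 (16136 genes). False calls among the unchanged genes numbered 9, 0 and 15, beside 143, 54 and 168 genes recovered. Regions were merged peaks, present in a library with an overlap of at least 1 bp. An exact permutation test of 2 against 2 libraries cannot give a p below 0.333, so none was used. Figures and tables were made with Python 3.11.15.

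The members and lists were chosen with earlier results of these data known. The members are always named, with Kit. From each other list the genes past the threshold (at most 4) are named, or at most 2 with the largest difference where none passed. Besides Kit, genes of the lists of other cell types are not named where none passed. Regions named are, per member and mark, the strongest and up to 3 of a single genotype. The 5 genes most like the members come from those tested in all 3 marks and over 100 kb from a member. Trac, on the T cell list, was not analysed here. Alternatives were another pseudocount, filter, scaling, flank and peak threshold, a replicate block and leaving out each library.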

Additional observations from a re-analysis of the deposited data

How the results depend on the processing

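H3K4me1 and H3K4me3 gave 0 called genes under every alternative run, but H3K27ac calls depended on the processing. The 52 genes became 9 with a pseudocount of 100 bp, 18 with no filter, 3 with equal total covered length (0 higher and 3 lower in Tg), 29 with peaks of −log10 q of at least 5, 5 with 2 kb flanks and 40 with no flank, the last added after seeing the data. Leaving out 1 library gave 0 to 531: 0 without WT replicate 1 and without WT replicate 2, 404 without Tg replicate 1 and 531 without Tg replicate 2. In these fits the lone library of a group is assumed to vary like the other group. Calls numbered 47 with the replicate block (13 higher and 34 lower in Tg), which called none of the members. The labels do not say that a number marks a shared animal or day. Same-numbered libraries correlated at -0.23, 0.26 and -0.09 in H3K27ac, H3K4me1 and H3K4me3, and crossing the numbers in H3K27ac, added after seeing the data, gave 76 calls. With peaks of −log10 q of at least 5, regions in the members' windows became 1 WT-only and 0 Tg-only in H3K27ac, from 2 and 1, and 5 WT-only in H3K4me1, from 10. A peak over at least 50% of a region left 1 WT-only region in H3K27ac. The H3K27ac change of Zfpm1 was -0.018 with the stricter q. The H3K4me3 change of Rhag was -0.0015 with the stricter q and -0.023 with no flank. Leaving out each library in turn, the H3K27ac change ran from -0.53 to 0.12 at Klf1, -0.13 to 0.28 at Zfpm1 and -0.37 to 0.058 at Epor, and the H3K4me3 change from -0.041 to 0.13 at Klf1, -0.25 to 0.28 at Zfpm1 and -0.015 to 0.076 at Epor. The adjusted p of Tfrc in H3K27ac ran from 0.0532 to 0.712 and that of Rhag from 0.129 to 0.750. In H3K4me1 the change of Zfpm1 ran from -1.74 to -0.98 and that of Gata1 from -1.80 to -0.62. Over all alternatives it ran from -0.35 to 0.15 at Klf1, -0.72 to 0.032 at Epor, -0.63 to -0.031 at Tfrc and -0.51 to 0.064 at Rhag, above 0 at Klf1 with no flank, at Epor with the stricter q and at Rhag without WT replicate 1. The H3K4me3 change of Alas2 ran from 1.02 to 2.58, the highest with a pseudocount of 100 bp. The causes were not tested. Some settings left too few peaks to test Epor and Rhag in H3K27ac and Gata1 in H3K4me1. With 2 libraries per group and unknown depth, small changes at these genes could not be detected. Larger changes could be missed too, most of all in H3K4me1. Recovery of changes of 2 on the log2 scale, given above, was 27% in H3K4me1, 71.5% in H3K27ac and 84% in H3K4me3.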
